A study of Mus musculus with 2 samples.

Results

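Foxp3-positive regulatory T cells were described here in a single-cell RNA data set of cells sorted from the small intestinal lamina propria, the connective tissue layer under the gut epithelium. A cell counted as Foxp3-positive when it had at least 500 detected genes, at most 10% of its unique molecular identifiers (UMIs) in mitochondrial genes, at least 1 Foxp3 UMI, at least 2 UMIs over Cd3d, Cd3e and Cd3g, and 0 Cd8a UMIs. This rule was met by 126 of 6736 kept cells, 125 of them in the wild-type (WT) library and 1 in the library labelled TTP-KO. The members were thus chosen by their own Foxp3, Cd3 and Cd8a UMIs, and the values of these genes describe the selection and support nothing. The WT members were set beside comparison T cells of the same library, which had 0 Foxp3 UMIs, at least 1 Trac UMI, at least 2 Cd3 UMIs and 0 Cd8a UMIs (865 cells).

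The study compared innate lymphoid cells (ILCs) of WT mice with those of Zfp36-/- mice, which lack the RNA-binding protein tristetraprolin (TTP) in all cells. All mice were on a C57BL/6 background, and their age, sex and treatment are not given in the labels. Cells of 4 mice were pooled for each genotype and loaded as 1 library on a 10x Genomics Chromium 3′ system, so no value below has a replicate and no test between groups was made. Intervals are exact 95% intervals for counting error only and leave out the spread between mice and between cells. The sort took live CD45+ CD90.2+ CD127+ cells that were negative for lineage markers, CD3 and TCRβ, so T cells go against the gate. Even so, 1312 of 3397 kept WT cells (38.6%, 37.0 to 40.3) had at least 2 Cd3 UMIs, against 123 of 3339 cells (3.68%, 3.07 to 4.38) in the TTP-KO library. The gate in the labels and these transcripts disagree, and how the T cells came into the sort was not tested, so the Foxp3-positive cells are not a sample of all regulatory T cells of this tissue.

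Regulatory T cells are CD4 T cells that hold other immune cells in check. The transcription factor Foxp3 defines them, and they act through inhibitory receptors such as CTLA-4, through capture of interleukin-2 with CD25, and through cytokines such as IL-10 and TGF-β. In the intestine several kinds are known: thymus-derived cells that often express Helios (Ikzf2), cells with Gata3 and the IL-33 receptor ST2 (Il1rl1) that can make the tissue-repair factor amphiregulin (Areg), and cells with the factor Maf that arise in response to gut microbes.

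The WT library held 3593 barcodes with 24721524 UMIs and the TTP-KO library 3522 barcodes with 27733804 UMIs, and 2 barcode sequences occurred in both. Foxp3-positive WT cells had a median of 5242 UMIs (lowest 1884, highest 51026), comparison cells 5089 (864 to 56565), and WT cells with 0 Cd3 and 0 Trac UMIs, called Cd3-negative cells here, 5360 (1798 cells). Zfp36 UMIs were found in 68.1% of kept WT cells (637 CPM, its UMIs per 1000000 UMIs of the group) and in 53.3% of kept TTP-KO cells (376 CPM). The part of the gene that is deleted is not given in the sources used here, and a 3′ tag outside it would be counted all the same, so this does not check the label.

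The Foxp3-positive WT cells carried the other markers that define regulatory T cells. Foxp3 itself (chrX:7573644-7595245, plus strand, mm10) had a lowest, median and highest count of 1, 2 and 9 UMIs per cell by selection, with 35 cells at 1 UMI, 32 at 2 and 58 at 3 or more. Ctla4, the inhibitory receptor for CD80 and CD86, had 0, 11 and 56 UMIs per Foxp3-positive cell and 0, 1 and 47 per comparison cell. Helios (Ikzf2) had 0, 9 and 46 UMIs against 0, 1 and 34, and Tnfrsf4, which encodes the costimulatory receptor OX40, had 0, 8 and 43 against 0, 0 and 21. The ranges of the groups overlapped for each of these genes, while the medians stood apart. At least 1 of Ctla4, Tnfrsf4 and Ikzf2 was found in each of the 125 cells, and all of them together in 114 (91.2%, 84.8 to 95.5) against 134 of 865 comparison cells (15.5%, 13.1 to 18.1). Trac, the constant part of the T cell receptor alpha chain, was found in 99.2% of Foxp3-positive cells although the rule did not ask for it, and Cd4 in 56.8% (60.5% of comparison cells). In a setting that left out some comparison cells, described with the clusters below, the log2 ratio of Cd4 was -0.65. That setting was chosen after the data had been seen.

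**Figure D1:**
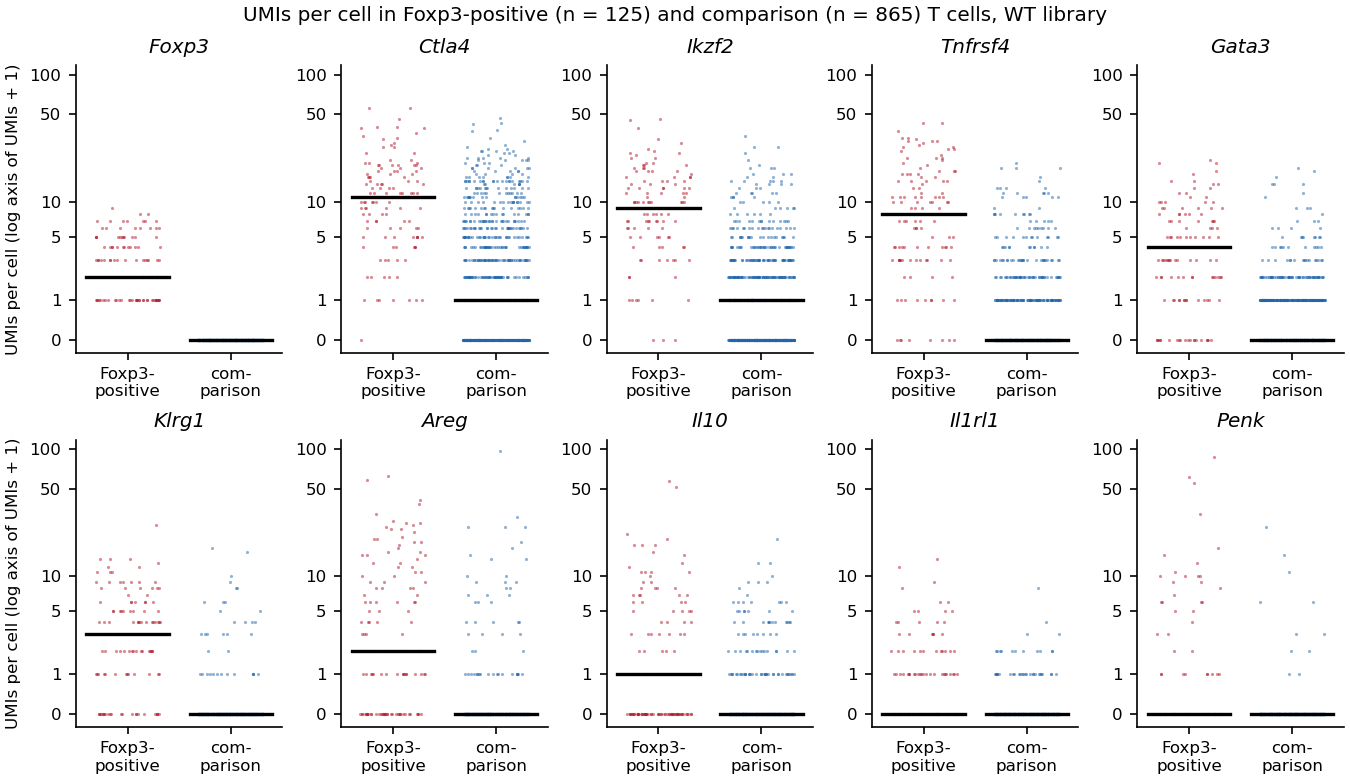
UMIs per cell (log axis of UMIs + 1) of 10 genes in the 125 Foxp3-positive and 865 comparison T cells of the WT library. Each point is a cell and each black bar a median. Foxp3 is set by the selection. Median Ctla4 was 11 UMIs in Foxp3-positive and 1 in comparison cells, while Penk and Il1rl1 had a median of 0 in both groups.

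Members with a single Foxp3 UMI had the other markers about as often as members with more. Among the 35 members with 1 Foxp3 UMI, Ctla4 was found in 100% of cells, Tnfrsf4 in 88.6%, Ikzf2 in 94.3%, Gata3 in 85.7% and Klrg1 in 80.0%. The 58 members with 3 or more Foxp3 UMIs gave 98.3%, 96.6%, 98.3%, 87.9% and 81.0% for the same genes. Just outside the rule, 2 cells with a Foxp3 UMI and a Cd3 sum of 1 both had Ctla4, Tnfrsf4 and Ikzf2 UMIs. By contrast, 6 cells with a Foxp3 UMI and a Cd3 sum of 0 had no Ctla4 and no Tnfrsf4 UMI, while all 6 had Ikzf2 and 5 had Gata3. No Foxp3-positive cell with a Cd3 sum of 2 or more had a Cd8a UMI. The background rate of Foxp3 was 6 of 1798 Cd3-negative cells (0.334%, 0.123 to 0.725).

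Across the genome, 8229 genes had at least 50 UMIs over Foxp3-positive and comparison cells together and were measured. UMIs were summed over the cells of each group and expressed as CPM. Of these genes, 807 (9.81%) were 1.5-fold or more higher and 1503 (18.3%) were 1.5-fold or more lower in Foxp3-positive cells, and the median log2 ratio was -0.07. Genes at 2-fold or more numbered 330 higher and 681 lower. Among antigen receptor genes, 5 were 2-fold or more higher and 12 lower. Foxp3-positive cells were a small group, with 968361 UMIs against 5300376 in comparison cells. The genes named below were taken by a rule on the interval end nearest to equal levels. Over the 15 alternative settings tried, the log2 ratio nearest to 0 was 2.08 (Ccr8) among the 25 named higher genes and -2.73 (Nkg7) among the 15 named lower genes, both in cells with a Cd4 UMI.

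**Figure D2:**
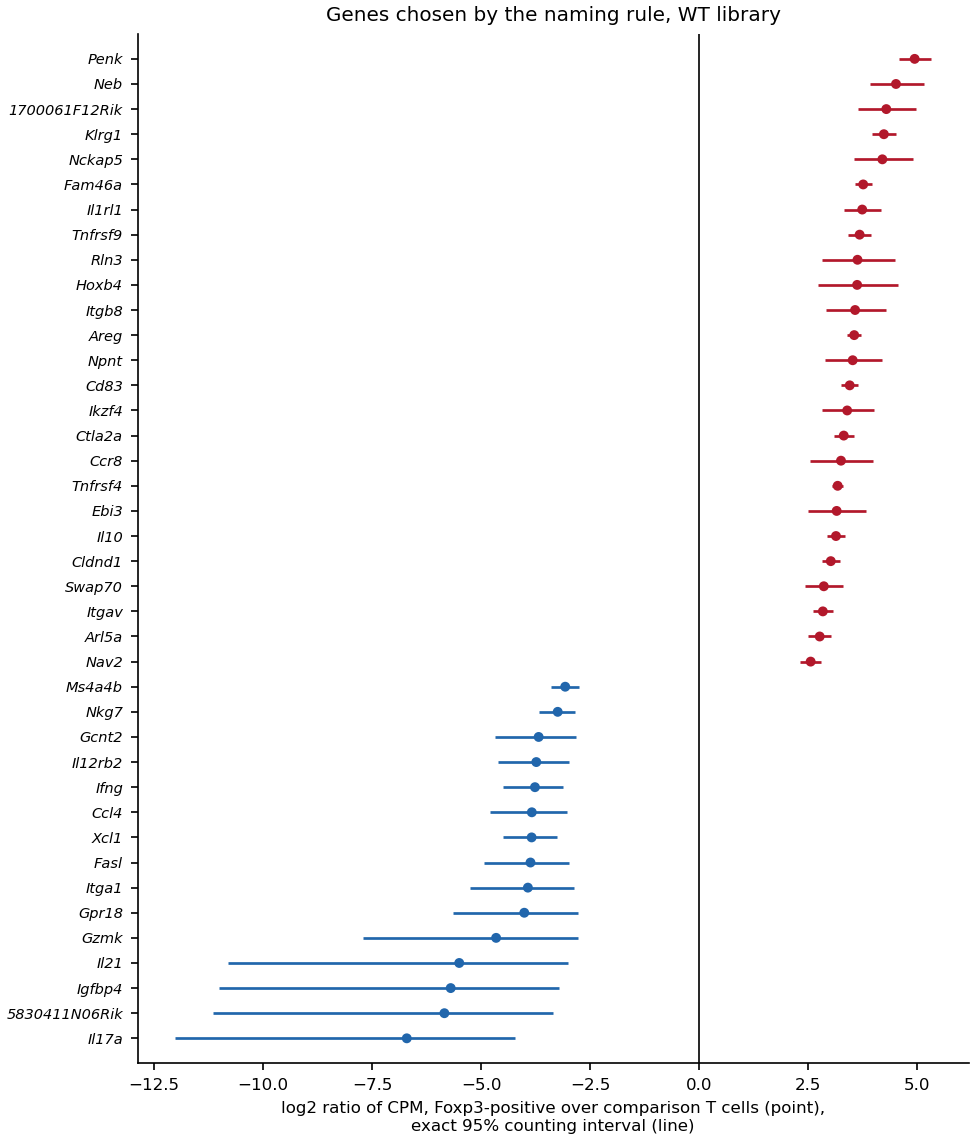
Log2 ratio of CPM in Foxp3-positive over comparison T cells (horizontal axis) for the 25 higher (red) and 15 lower (blue) genes that the naming rule chose. Points are ratios and lines exact 95% counting intervals. Penk has the highest ratio (4.94) and Il17a the lowest (-6.70), with wide intervals for lower genes that have 1 or 2 UMIs in Foxp3-positive cells.

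Genes of the regulatory T cell core program were mostly higher in Foxp3-positive cells. Of 24 listed core genes besides Foxp3, 20 were measured, and 16 of these were 1.5-fold or more higher and 2 lower, with a median log2 ratio of 1.91. The shares over all measured genes were 9.81% and 18.3%. The list was chosen as known features of these cells and is no independent evidence of its direction. Tnfrsf9, the costimulatory receptor 4-1BB, had 0, 2 and 15 UMIs per Foxp3-positive cell and was 12.8-fold higher (10.7 to 15.4). Cd83, an activation marker, was 10.9-fold higher (9.59 to 12.5) and Tnfrsf4 9.04-fold higher (8.29 to 9.86). Ikzf4 (Eos), a Foxp3 partner of the Ikaros family, was 10.5-fold higher (7.01 to 16.0) at 73 against 38 UMIs. Ikzf2 was 4.55-fold higher (4.24 to 4.89), and Tnfrsf18, which encodes GITR, 3.34-fold higher (3.02 to 3.70).

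The Ctla4 difference was smaller in fold, 2.45-fold (2.31 to 2.59), since 62.8% of comparison cells also had a Ctla4 UMI. Il2ra, which encodes CD25, was 2.34-fold higher (1.87 to 2.91) and was found in 47.2% of Foxp3-positive cells against 17.5% of comparison cells. Capg, an actin-capping protein, was 4.67-fold higher (4.18 to 5.22), and Izumo1r, the folate receptor 4 known from regulatory T cells, was 3.93-fold higher (3.31 to 4.65). Itgae, the integrin CD103 that binds epithelial E-cadherin, was 4.19-fold higher (3.34 to 5.25) (log2 ratio 2.07), and its log2 ratio was 0.98 when comparison cells could also have Cd8a. The members of the list that were lower were Rgs1, a regulator of chemokine receptor signals, at 3.04-fold (2.85 to 3.24), and Ikzf1 (Ikaros) at 2.77-fold (2.17 to 3.58). Icos, a costimulatory receptor, was near equal at 525 and 496 CPM.

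Neuropilin-1 (Nrp1), often used as a mark of thymus-derived regulatory T cells, was scarce. It had 14 UMIs in 12 Foxp3-positive cells (9.60%) and 30 UMIs in comparison cells, below the minimum for a measured gene. Lrrc32, which encodes the TGF-β docking receptor GARP, had 20 against 7 UMIs, and Gpr83, a receptor known from regulatory T cells, 10 against 1. These counts are low, and the share of cells with a UMI was 13.6% against 0.578% for Lrrc32 and 4.80% against 0.116% for Gpr83.

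Genes for known suppressive functions were also higher. Of 17 listed effectors 14 were measured, and 12 were 1.5-fold or more higher and 0 lower, with a median log2 ratio of 1.21. Among all measured genes 9.81% were higher and 18.3% lower, with a median of -0.07. Areg, the epidermal growth factor family member amphiregulin (chr5:91139599-91148432), had 0, 2 and 62 UMIs per Foxp3-positive cell and 0, 0 and 97 per comparison cell. It was 11.8-fold higher (10.5 to 13.2), and 88 members had a UMI. Il10, the anti-inflammatory cytokine (chr1:131019845-131024974), had 0, 1 and 57 UMIs per member and was 8.80-fold higher (7.63 to 10.2), with a UMI in 65 members (52.0%) and 11.1% of comparison cells. The 5 members with the most Il10 held 33.1% of its UMIs, so its level was uneven between cells.

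Itgb8 and Itgav, the chains of an integrin known to free active TGF-β, were both higher. Itgb8 was 11.9-fold higher (7.51 to 19.4), a log2 ratio of 3.58 that was 2.45 in cells with a Cd4 UMI and 2.69 with at most 5% mitochondrial UMIs. Itgav was 7.14-fold higher (6.08 to 8.40), with Itgav in 80.0% of members against 20.2% of comparison cells. Tgfb1, the latent cytokine itself, was 1.68-fold higher (1.45 to 1.95). Ebi3, a subunit of IL-35 and IL-27, was 8.89-fold higher (5.62 to 14.3), while Il12a, the other IL-35 subunit, had 0 UMIs in members and 2 in comparison cells. Lag3, an inhibitory receptor for MHC class II, was 5.05-fold higher (3.78 to 6.74). The ectoenzyme Nt5e (CD73), which makes adenosine, was 1.67-fold higher (1.40 to 1.98), Fgl2 1.72-fold (1.498 to 1.96), and Lgals1 (galectin-1) 1.89-fold (1.71 to 2.09). Gzmb, the cytotoxic protease granzyme B, summed to 2.19 times the comparison level, but cells with a UMI were about as common in both groups (30.4% and 31.8%), and 5 members held 64.2% of its UMIs.

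The genes of the Gata3 and ST2 tissue program gave the highest median of the gene lists. Of 16 listed genes 13 were measured, and 10 were higher and 1 lower, with a median log2 ratio of 2.19. Among all measured genes 9.81% were higher and 18.3% lower. The list shares 4 genes with the core list (Ikzf2, Il2ra, Nrp1 and Tnfrsf9). Of these, Ikzf2, Il2ra and Tnfrsf9 count among the higher genes, and the list median is the ratio of Ikzf2. Gzmb also counts as higher here, though most of its UMIs lay in 5 members. Gata3 (chr2:9857078-9890034) had 0, 4 and 22 UMIs per Foxp3-positive cell and 0, 0 and 19 per comparison cell, and was 5.41-fold higher (4.84 to 6.05). Klrg1, an inhibitory lectin-like receptor for cadherins (chr6:122270596-122282882), had 0, 3 and 26 UMIs against 0, 0 and 17 and was 18.8-fold higher (15.7 to 22.8). Il1rl1, the receptor for the alarmin IL-33 (chr1:40429570-40465415), had 0, 0 and 14 UMIs against 0, 0 and 8 and was 13.4-fold higher (9.97 to 18.1). Il18r1, the IL-18 receptor chain next to Il1rl1 on chromosome 1, was the member that was lower, 7.31-fold (5.74 to 9.44).

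At an equal depth of 2000 UMIs per cell, Gata3 was found in 67.7% of Foxp3-positive cells (58.8 to 75.9), 16.9% of comparison cells and 42.5% of Cd3-negative cells, which include the ILC2 that use the same factor. Klrg1 was found in 66.1%, 2.82% and 18.1% of these groups, and Areg in 57.3%, 3.88% and 9.96%. Il1rl1 was found in 27.4%, 2.59% and 2.28%. Without thinning the shares in Foxp3-positive cells were 84.0% for Gata3, 81.6% for Klrg1, 70.4% for Areg and 45.6% for Il1rl1. At least part of the program was seen in most of the cells: 114 members (91.2%) had a UMI of at least 1 of Gata3, Il1rl1 and Klrg1, and 53 (42.4%) had all of them, against 15 of 865 comparison cells (1.73%).

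**Figure D3:**
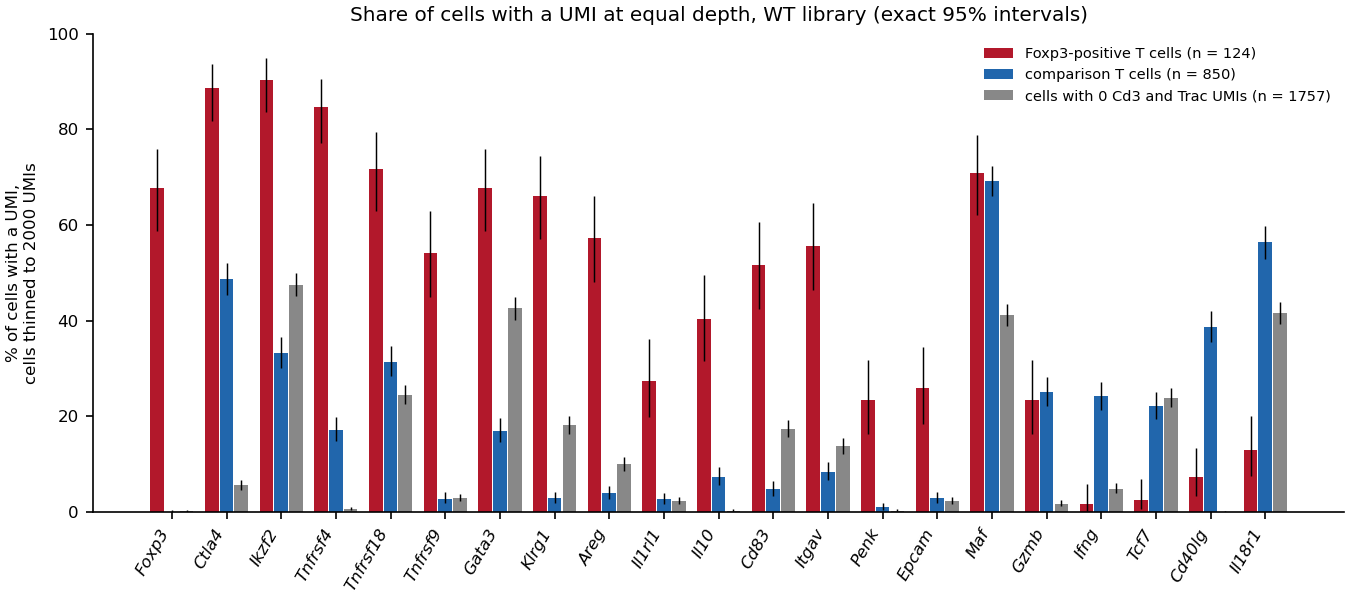
Share of cells with a UMI of 21 genes after each cell was thinned to 2000 UMIs, in Foxp3-positive T cells (124 cells), comparison T cells (850) and Cd3-negative cells (1757) of the WT library. Bars are shares in percent and lines exact 95% intervals. Gata3 (67.7%), Klrg1 (66.1%) and Areg (57.3%) lie far above comparison cells, Maf and Gzmb lie close to them, and Il18r1, Cd40lg, Ifng and Tcf7 lie below.

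Because Gata3 was among the higher genes, the 250 bases upstream of the named genes were searched for the GATA motif AGATAA on both strands. RefSeq promoters (GRCm38.p6) were found for 18 of the 25 named higher genes and 14 of the 15 lower genes. The motif was in 4 of the 18 higher promoters (22.2%), in 0 of the 14 lower promoters and in 10.3% of all 27025 promoters. The 4 promoters are shown because they hold these letters; capitals mark motif matches, AGATAA and its reverse complement TTATCT, in Ctla2a also an AP-1 match and in Rln3 an NR4A match. They are Il1rl1 at chr1:40429320-40429569 (plus strand), Ccr8 at chr9:120091883-120092132 (plus), Ctla2a at chr13:60936626-60936875 (minus) and Rln3 at chr8:84044980-84045229 (minus), each written 5′ to 3′ towards the start site.
Il1rl1: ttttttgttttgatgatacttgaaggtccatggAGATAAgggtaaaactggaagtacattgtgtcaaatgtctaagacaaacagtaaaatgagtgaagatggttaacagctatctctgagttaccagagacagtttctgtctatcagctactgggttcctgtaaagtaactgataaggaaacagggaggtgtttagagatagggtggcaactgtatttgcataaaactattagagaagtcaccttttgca
Ccr8: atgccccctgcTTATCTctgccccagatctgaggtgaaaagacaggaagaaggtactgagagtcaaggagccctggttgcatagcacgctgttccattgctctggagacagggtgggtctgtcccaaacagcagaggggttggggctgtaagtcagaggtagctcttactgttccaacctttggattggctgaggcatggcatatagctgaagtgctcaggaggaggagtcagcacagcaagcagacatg
Ctla2a: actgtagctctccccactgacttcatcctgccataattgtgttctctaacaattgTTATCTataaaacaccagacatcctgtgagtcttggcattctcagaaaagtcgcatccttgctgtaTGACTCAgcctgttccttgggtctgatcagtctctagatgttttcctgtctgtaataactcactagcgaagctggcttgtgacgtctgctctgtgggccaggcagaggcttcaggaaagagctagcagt
Rln3: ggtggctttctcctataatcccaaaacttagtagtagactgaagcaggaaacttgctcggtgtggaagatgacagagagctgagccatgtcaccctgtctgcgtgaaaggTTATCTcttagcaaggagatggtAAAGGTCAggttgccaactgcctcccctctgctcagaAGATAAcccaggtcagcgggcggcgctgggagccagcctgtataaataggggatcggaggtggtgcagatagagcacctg
Matches in these promoters do not overlap. A match describes letters and does not show binding. The other motifs searched were forkhead TGTTTAC (1 of 18, Swap70, against 3.09% of all promoters), AP-1 TGANTCA (1 of 18, Ctla2a, against 6.87%), NR4A AAAGGTCA (1 of 18, Rln3, against 1.31%) and NF-kB (GGGA and TTCC with NN between them; 0 of 18, against 1.17%). The genes behind the promoters printed were drawn from the named higher genes, so their direction was set by that choice and supports nothing. Il1rl1 is given above. Ccr8, the receptor for the chemokine CCL1, was 9.53-fold higher (5.81 to 15.9) and Ctla2a, a cysteine protease inhibitor, 9.96-fold (8.52 to 11.6). Rln3, the hormone relaxin-3, was 12.4-fold higher (7.07 to 22.5) at 43 against 19 UMIs.

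Maf was common in both groups, in 71.0% of Foxp3-positive and 69.2% of comparison cells at 2000 UMIs per cell. Il23r, the IL-23 receptor, had 5 UMIs in members and 75 in comparison cells and was 2.74-fold lower (1.12 to 8.68). Il1r1, the IL-1 receptor, had 0 UMIs in members and 73 in comparison cells, which makes it at least 4.45-fold lower by a floor of 3 UMIs.

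Other transcription factors of effector regulatory T cells were mixed. Of 29 measured, 6 were higher and 6 lower, against 9.81% and 18.3% of all measured genes, with a median log2 ratio of -0.11. The higher ones were Gata3, Nfil3 (3.70-fold, 2.74 to 4.96), Batf (2.58-fold, 2.16 to 3.07), Irf4 (2.36-fold, 1.69 to 3.28), Stat5a (1.999-fold, 1.47 to 2.70) and Nr4a1 (log2 ratio 0.65). Batf and Irf4 act together at enhancers of activated T cells, and Stat5a carries the IL-2 signal. The lower ones were Tbx21 (T-bet), Tcf7, Bach2, Runx3, Bhlhe40 and Satb1. Tbx21, the regulator of type 1 T cells, had 2 UMIs in 2 members and 268 in comparison cells (log2 ratio -4.61, -7.67 to -2.75). Tcf7 (TCF-1), a factor of naive and memory T cells, was 8.83-fold lower (5.48 to 15.2) and Runx3 2.54-fold lower (2.06 to 3.15). Prdm1 (Blimp-1) was near equal at 78.5 and 89.4 CPM, and Pparg, a factor of fat tissue regulatory T cells, had 0 UMIs.

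Penk headed the named higher genes. It encodes preproenkephalin, the precursor of opioid peptides (chr4:4133531-4138819), and had 421 UMIs in 36 Foxp3-positive cells (28.8%) against 75 UMIs in comparison cells. Per cell it ranged from 0 over a median of 0 to 87 UMIs in members and to 25 in comparison cells, and the ratio was 30.7-fold (24.0 to 39.8). A single member held 20.7% of the UMIs and 5 members 59.9%, so Penk was a feature of a minority of the cells. At 2000 UMIs per cell it was found in 23.4% of Foxp3-positive, 0.941% of comparison and 0.228% of Cd3-negative cells. All 29 thinned Penk-positive members had Tnfrsf4 (against 84.7% of all thinned members), and 24 had Klrg1 (82.8%, against 66.1%).

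Several named genes have no well-known part in regulatory T cells. Neb, which encodes the muscle filament protein nebulin, was found in 55.2% of Foxp3-positive cells and 2.66% of comparison cells and was 22.8-fold higher (15.1 to 35.5), with at most 5 UMIs per cell. Fam46a, a predicted nucleotidyltransferase, had 0, 4 and 33 UMIs per member and was 13.6-fold higher (11.9 to 15.5). Nckap5 was 18.4-fold higher (11.6 to 30.01), the uncharacterised transcript 1700061F12Rik 19.6-fold (12.6 to 31.5), the homeobox factor Hoxb4 12.3-fold (6.66 to 23.8), and the matrix protein gene Npnt (nephronectin) 11.5-fold (7.37 to 18.2). Cldnd1 was 8.10-fold higher (7.03 to 9.34) and Nav2 5.88-fold (4.96 to 6.98). Swap70 (7.25-fold, 5.37 to 9.82) and Arl5a (6.79-fold, 5.68 to 8.14) were also named, but both belong to the core list above. Each of these was found in more members than comparison cells at equal depth, for example 59.7% against 7.53% for Fam46a and 25.8% against 0.941% for Neb.

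Effector cytokines had the lowest median of the gene lists. Of 24 listed helper cytokine and chemokine genes 17 were measured, and 0 were higher and 15 lower, with a median log2 ratio of -3.02. Among all measured genes 9.81% were higher and 18.3% lower. Il17a had 1 UMI in Foxp3-positive cells and 571 in comparison cells (log2 ratio -6.70, -12.01 to -4.22), though only 3.24% of comparison cells carried it. Il21 had 1 against 248 UMIs, Csf2 1 against 186, Il2 3 against 252 and Il22 1 against 60. Ifng, the type 1 cytokine, had 19 UMIs in 4 members, 63.2% of them in 1 cell, and 1414 in comparison cells, and was 13.6-fold lower (8.67 to 22.7). Cd40lg, which helper T cells use to activate B cells, was 6.18-fold lower (4.499 to 8.74) and was found in 17.6% of members against 61.5% of comparison cells. The listed genes that were neither were Ltb (423 and 402 CPM) and Il4 (18.6 and 22.6 CPM).

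Other named lower genes included Xcl1 and Ccl4, both chemokines, and Fasl, a ligand that triggers cell death. Xcl1 was 14.3-fold lower (9.53 to 22.7), Ccl4 14.3-fold (8.15 to 27.8), Fasl 14.6-fold (7.90 to 30.6), Nkg7, a cytotoxic granule protein, 9.47-fold (7.18 to 12.8), and Il12rb2, the IL-12 receptor chain, 13.3-fold (7.90 to 24.4). Ccl5, from the list of cytokines and not among the 15, was 6.79-fold lower (5.90 to 7.86), and its 198 UMIs in members lay mostly in 5 cells (86.9%). Gzmk had 2 UMIs in 1 member and 276 in comparison cells. Itga1 (CD49a) was 15.2-fold lower (7.34 to 38.0), Gcnt2 12.8-fold (7.13 to 25.8), the lipid receptor Gpr18 16.1-fold (6.85 to 49.9), and Ms4a4b 8.41-fold (6.80 to 10.5). 5830411N06Rik had 1 UMI in members and 314 in comparison cells.

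Genes of naive and central memory T cells were lower too. Of 15 measured, 0 were higher and 13 lower, against 9.81% and 18.3% of all measured genes, with a median log2 ratio of -1.83. Igfbp4 had 1 UMI against 284 and Actn1 1 against 126. Pde3b, a cAMP-degrading enzyme that Foxp3 is known to repress, was 9.93-fold lower (5.98 to 17.8). Themis was 5.15-fold lower (3.27 to 8.63) and Il7r, the CD127 chain that the sort selected for, 2.60-fold lower (2.38 to 2.83), with 0, 4 and 24 UMIs per member and 0, 8 and 41 per comparison cell. S1pr1, the receptor for exit from tissue, had 6 UMIs against 216 and was 6.58-fold lower (2.97 to 18.1), but its log2 ratio moved from -2.72 to -1.10 among cells with at most 5% mitochondrial UMIs. Ccr7, which guides cells to lymph nodes, had 11 UMIs in members.

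**Figure D4:**
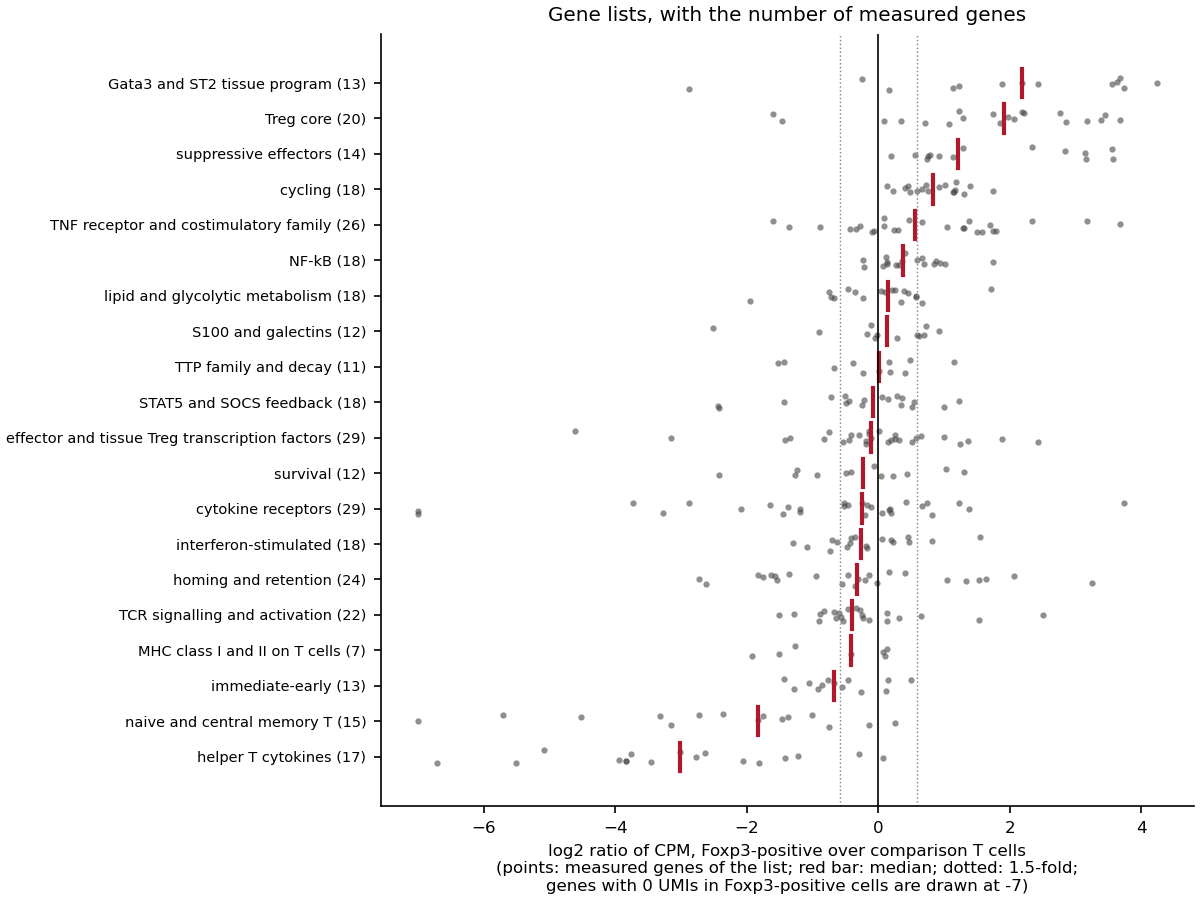
Log2 ratio of CPM in Foxp3-positive over comparison T cells for the measured genes of 20 lists, whose number stands after each name. Points are genes, red bars medians and dotted lines 1.5-fold. The medians run from 2.19 for the Gata3 and ST2 program to -3.02 for helper T cytokines, and most of the other lists have medians near 0. Genes with 0 UMIs in Foxp3-positive cells are drawn at -7.

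Homing receptors differed by gene. Of 24 measured, 6 were higher and 9 lower, against 9.81% and 18.3% of all measured genes, with a median log2 ratio of -0.33. Besides Ccr8 and Itgae, the higher ones were Ccr4 (3.11-fold, 2.12 to 4.52), Ccr1 (2.90-fold, 1.75 to 4.71), Cxcr4 (2.52-fold, 1.89 to 3.33) and Itga4 (2.07-fold, 1.77 to 2.42), the partner of β7 in the gut-homing integrin. The lower ones included Cxcr3 6.16-fold (4.38 to 8.94) and Cxcr6 3.102-fold (2.69 to 3.60). Gut homing itself was shared, with Ccr9 in 79.2% of Foxp3-positive and 71.8% of comparison cells and Itgb7 in 82.4% and 70.3%. Gpr15, a colon-homing receptor, had 4 UMIs against 2.

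Costimulatory receptors and NF-kB genes tended to be higher. Of 26 measured genes of the TNF receptor and costimulatory family, 13 were higher and 3 lower, with a median log2 ratio of 0.56. Among all measured genes 9.81% were higher and 18.3% lower. Pdcd1 (PD-1) was 3.25-fold higher (2.54 to 4.14), Cd27 2.97-fold (2.47 to 3.57), Fas 2.82-fold (1.80 to 4.36), Tnfrsf1b, the TNF receptor TNFR2, 2.60-fold (2.21 to 3.05), and the inhibitory receptor Cd200r1 3.47-fold (2.495 to 4.79). Of 18 measured NF-kB genes, 8 were higher and 0 lower, with a median log2 ratio of 0.38. Rel (c-Rel), which is needed for Foxp3 induction in the thymus, was 3.35-fold higher (2.94 to 3.83), Nfkb1 2.02-fold (1.78 to 2.29), and the inhibitor Nfkbia 1.92-fold (1.82 to 2.02), with a UMI in 98.4% of members and 76.4% of comparison cells.

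Of 29 measured cytokine receptor genes, 6 were higher and 11 lower, against 9.81% and 18.3% of all measured genes, with a median log2 ratio of -0.25. Besides Il1rl1, Il2ra and Tnfrsf1b, the higher ones were Il10ra, the IL-10 receptor (1.75-fold, 1.31 to 2.32), Tgfbr1 (log2 ratio 0.74) and the interferon receptor chain Ifnar1. Tgfbr2 was 2.28-fold lower (1.68 to 3.16). Among 22 measured genes of receptor signalling, 3 were higher and 8 lower, with a median log2 ratio of -0.40. The higher ones were Dusp4 (5.66-fold, 4.19 to 7.64), a phosphatase that limits MAP kinases, Tox (2.89-fold, 2.41 to 3.45) and Nr4a1. Of 13 measured immediate-early genes, 0 were higher and 7 lower, with a median log2 ratio of -0.68. Fos was 1.88-fold lower (1.69 to 2.09) and Btg2 2.69-fold lower (2.43 to 2.97).

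Zfp36, the gene targeted in the mice of the other library, was expressed in Foxp3-positive WT cells. It had 0, 2 and 25 UMIs per cell, and its level was 472 CPM against 357 CPM in comparison cells (1.32-fold, 1.19 to 1.47) and 762 CPM in Cd3-negative cells. Its relatives differed more. Zfp36l1 was 2.21-fold higher (2.07 to 2.37), with 0, 9 and 34 UMIs per Foxp3-positive cell against 0, 2 and 46. Zfp36l2 was 2.87-fold lower (2.56 to 3.23), with 0, 2 and 19 UMIs against 0, 5 and 41. Of 11 measured genes of this family and of RNA decay, 1 was higher and 3 lower, with a median log2 ratio of 0.02 (9.81% and 18.3% of all genes).

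Survival, metabolic, STAT5 and interferon genes are given beside the background of 9.81% higher and 18.3% lower among all measured genes. Bcl2, the mitochondrial survival factor, was 5.37-fold lower (4.06 to 7.24), while Bcl2l1 (Bcl-xL) was 2.04-fold higher (1.41 to 2.89). In all, 2 of 12 survival genes were higher and 4 lower. Of 18 measured metabolic genes 2 were higher, Fabp5, a fatty acid binding protein (3.28-fold, 2.51 to 4.27), and Hk1, and 4 were lower, among them Hk2 (3.85-fold, 2.11 to 7.83). Of 18 measured genes of STAT5 and SOCS feedback, 2 were higher and 4 lower, including Socs3 (2.69-fold lower, 2.02 to 3.66) and Pim2 (5.42-fold lower, 2.44 to 14.97). Of 18 measured interferon-stimulated genes 2 were higher and 5 lower. The higher ones were Bst2 and Ifi27l2a, the latter 2.92-fold higher (2.71 to 3.15) and found in 92.0% of members against 44.6% of comparison cells. Of 12 measured S100, galectin and related genes 5 were higher and 2 lower. Of 7 MHC genes 0 were higher and 3 lower, all of them class II, and 1 cell held 81.0% of the H2-Aa UMIs of members.

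Cycling genes summed to higher levels, but in very few cells. Of 18 measured, 13 were 1.5-fold or more higher and 0 lower, with a median log2 ratio of 0.84. Among all measured genes 9.81% were higher and 18.3% lower. Mki67, a proliferation marker, was 2.63-fold higher (2.09 to 3.28), with 119 UMIs in 19 members, and 5 of these members held 83.2% of them. Without the cell richest in Mki67 its log2 ratio was 0.82 instead of 1.39. Cells with UMIs of at least 10 of the 18 genes numbered 6 of 125 members (4.80%, 1.78 to 10.2), with a median of 31472 UMIs, and 20 of 865 comparison cells (2.31%, 1.42 to 3.55). Direction was not stable for Mcm5 (log2 ratio 0.59, but -0.0696 as a mean of per-cell CPM), Cdc20 (0.73 and -0.23), Birc5 (1.17, but -0.45 in thinned cells) and Cdk1 (1.18 and -0.54).

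Members were also divided by whether they had a UMI of a given gene. Il10-positive members (65 cells, median 5629 UMIs) were set beside Il10-negative ones (60 cells, median 4667 UMIs), a split made after the data had been seen. Gzmb had 1012 UMIs in the Il10-positive and 33 in the Il10-negative members and was found in 46.2% and 13.3% of them. Lag3 was found in 52.3% and 23.3%, at 145 and 50.1 CPM, and Maf stood at 991 and 434 CPM. Ctla4 was 2077 and 1449 CPM, Ikzf2 1428 and 1481 CPM, and Foxp3 itself 390 and 384 CPM. Of the 50 thinned members with Il10, 42 had Maf (84.0%, against 71.0% of all thinned members) and 37 Gata3 (74.0%, against 67.7%).

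The second split set the 57 members with an Il1rl1 UMI (ST2-positive, median 5065 UMIs) beside the 68 without (median 5245 UMIs). Plasma cell transcripts lay almost wholly on the ST2-positive side: immunoglobulin genes were 20.5% of its UMIs against 0.132%, and Jchain, which links immunoglobulin chains, had 10817 UMIs against 45. These UMIs enter the CPM totals, so each level is followed by its value without the 4 members that had 5% or more immunoglobulin UMIs, all of them ST2-positive. The ST2-positive members had more Gata3 (814 against 515 CPM, and 1120 without the 4 cells), Areg (1211 against 783, and 1582) and Cd83 (945 against 488, and 1360). The same held for Itgb8 (96.4 against 35.7 CPM, and 136), Tnfrsf4 (1755 against 1178, and 2278) and Penk (608 against 293, and 824). Maf stood at 596 against 813 CPM with the 4 cells and at 821 against 813 without them. Gzmb, most of whose UMIs lay in 5 members, was 743 against 1354 CPM, and 929 without the 4 cells, and was found in 33.3% and 27.9% of members. Foxp3 was 413 against 366 CPM, and 556 without the 4 cells, and Ikzf2 1471 against 1440 CPM, and 2045. Mki67 had 12 UMIs in the ST2-positive and 107 in the ST2-negative members, from the few cycling cells described above. Of the 34 thinned members with Il1rl1, 29 had Klrg1 (85.3%, against 66.1% of all thinned members), 24 Areg (70.6%, against 57.3%) and 16 Il10 (47.1%, against 40.3%). These splits also divide cells by chance detection of a transcript, so an Il1rl1-negative member may still express it.

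Most Foxp3-positive cells lay together among the T cells of the library. WT T cells were clustered without Foxp3, Cd3, Cd8 and antigen receptor genes, and 102 of the 125 members (81.6%) fell in 1 cluster of 125 cells. The other 23 cells of this cluster had 0 Foxp3 UMIs and were 2.66% of the comparison cells. Their levels were 2523 CPM for Ctla4, 1660 for Tnfrsf4 and 2241 for Ikzf2, against 2434, 2109 and 1956 CPM in the members there, though these genes helped to form the cluster. Leaving these 23 cells out of the comparison moved the log2 ratio of Klrg1 from 4.24 to 5.91, of Penk from 4.94 to 6.74, of Tnfrsf9 from 3.68 to 5.08, and of Nckap5 from 4.201 to 8.81. The 23 cells had clustered with the members by expression, so a rise for genes that formed the cluster was set by the choice and supports nothing. Of the log2 ratios followed, 29 left their counting interval in this setting and 190 stayed within it. The remaining 23 members were spread over 6 clusters, with 6, 5, 4, 4, 3 and 1 members. Median depths of these clusters were 21856, 22400, 10695, 5219, 4904 and 5318 UMIs per cell. In the same order, their members had 855, 501, 2635, 564, 1773 and 821 CPM of Ctla4. Tnfrsf4 stood at 262, 745, 289, 1466, 591 and 0 CPM, and Ikzf2 at 878, 451, 707, 1880, 1504 and 164 CPM. Apart from Ctla4 at 2635 CPM, these levels lay below those of the members in the main cluster.

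Klrg1, Gata3 and the IL-33 receptor are also known from ILC2, the innate cells that respond to IL-33. For a side by side view, chosen after the data had been seen, 396 WT cells with 0 Cd3 and Trac UMIs and at least 1 UMI each of Il17rb and Hs3st1 were taken as ILC2-type cells (median 6380 UMIs). Klrg1 was found in 81.6% of Foxp3-positive and 80.1% of ILC2-type cells, at 523 and 320 CPM. Areg stood at 976 and 554 CPM, Il1rl1 at 166 and 37.0 CPM, and Neb at 125 and 55.1 CPM. Gata3 was lower in Foxp3-positive cells (650 against 1090 CPM), as was Il2ra (122 against 205 CPM). Npnt stood at 67.1 and 94.3 CPM and Swap70 at 109 and 144 CPM.

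For other genes the groups lay further apart. Il10 had 508 UMIs in Foxp3-positive and 1 in ILC2-type cells, Tnfrsf4 stood at 1437 against 2.90 CPM, Ctla4 at 1767 against 8.70 CPM and Itgae at 146 against 3.63 CPM. Il5 had 0 UMIs in Foxp3-positive cells and 126 in ILC2-type cells, Il13 3 and 421, Csf2 1 and 2437, and Pparg 0 and 84. Il4 was 18.0-fold lower in Foxp3-positive cells (11.3 to 30.6).

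**Figure D5:**
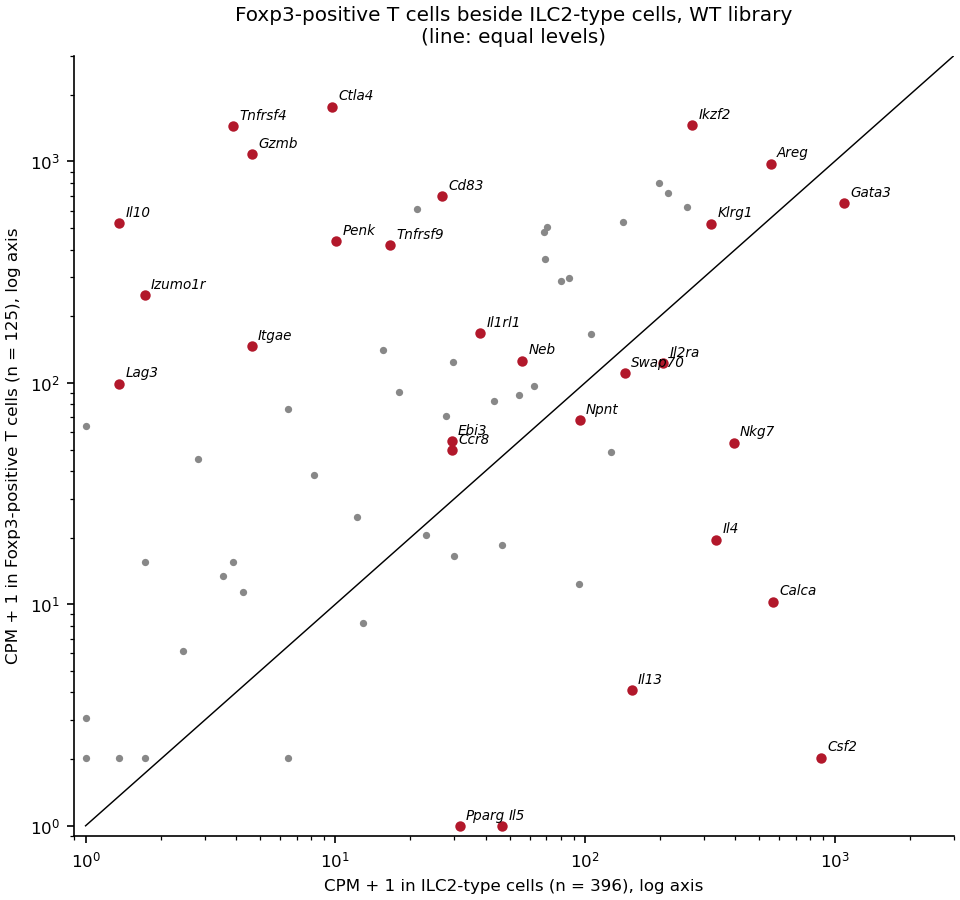
CPM + 1 in the 125 Foxp3-positive T cells (vertical, log axis) against 396 ILC2-type cells of the WT library (horizontal, log axis) for the named genes and genes of related lists. The line marks equal levels and labelled genes are in red. Klrg1, Areg and Gata3 lie near the line, Il10, Ctla4 and Tnfrsf4 far above it, and Csf2, Il13 and Il5 far below.

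The TTP-KO library held 1 Foxp3-positive cell of 3339 kept cells (0.0299%, 0.000758 to 0.167), against 125 of 3397 in WT (3.68%, 3.07 to 4.37). All T cells were fewer there, with 17 comparison cells against 865. Foxp3-positive cells made up 1 of 18 members and comparison cells in the TTP-KO library (5.56%, 0.141 to 27.3) and 125 of 990 in WT (12.6%, 10.6 to 14.9), and these intervals overlap. Of all cells with a Cd3 sum of at least 2 and 0 Cd8a UMIs, they were 1 of 119 in TTP-KO (0.840%, 0.0213 to 4.59). In WT they were 125 of 1158 such cells (10.8%, 9.07 to 12.7), and these intervals do not overlap, so the reading depends on the cells counted. Members and comparison cells were 18 of the 119 TTP-KO cells and 990 of the 1158 WT cells. The cells outside them had 0 Foxp3 and 0 Trac UMIs. With 1 library per genotype, a difference in genotype and a difference in sorting or sample cannot be told apart. The single cell had 3250 UMIs, with 4 of Foxp3, 6 of Ctla4, 6 of Ikzf2 and 4 of Tnfrsf18. It had 0 UMIs of Tnfrsf4, Gata3, Il1rl1, Klrg1, Areg and Il10, which at 1 cell gives no level. Another 3 TTP-KO cells had a Foxp3 UMI, all with a Cd3 sum of 0.

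Markers of other cell types were measured in the same cells. Of 6 measured γδ T cell markers all were lower in Foxp3-positive cells, and Trdc was found in 1 member; its log2 ratio was -2.77, and 1.91 among cells with a Cd4 UMI. ILC1 and NK markers summed to 54.7 CPM against 469 in comparison cells, ILC3 markers to 243 against 550, and ILC2 markers to 278 against 116, where Il1rl1 and Ccr8 made up most and Il5 was at 0. Of 6 measured markers of follicular helper T cells, 3 were higher and 1 lower, against 9.81% and 18.3% of all measured genes. The follicular helper list summed to 592 against 325 CPM in comparison cells. It holds Izumo1r and Pdcd1, which were higher, and Il21, which was lower, all given above. Macrophage markers summed to 440 against 645 CPM, mostly in 1 cell that held 90.1% of the Apoe UMIs. Dendritic cell markers summed to 3.098 against 31.7 CPM and mast cell markers to 0 in both groups. B cell markers summed to 147 against 112 CPM in comparison cells, with 1 of 2 measured genes higher and 0 lower. Of the 5 listed B cell genes 3 were at 0 in members, among them Ms4a1 and Pax5. Of 7 epithelial markers 5 were at 0 in members, while Epcam, which some T cells express, was found in 42.4% of members against 7.63% of comparison cells and was 5.53-fold higher (4.13 to 7.41). Krt18 had 7 UMIs, and Vil1, Fabp2 and Reg3g were at 0. The part of these markers in the other differences was not tested.

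Immunoglobulin transcripts of plasma cells were the main foreign signal. They took 9.28% of all UMIs of Foxp3-positive cells and 6.06% of those of comparison cells, but 0.133% and 0.107% of a median cell. In 4 members they were 5% or more of the UMIs, up to 71.2%, and the 5 richest members held 98.8% of them. None of these 4 was a predicted doublet. The same held for the 12 comparison cells and the 78 Cd3-negative cells with 5% or more. The prediction marked no such cell in these groups, so it does not tell whether the 4 members are doublets. With cells of 5% or more left out of both groups, 881 genes were higher and 1400 lower, and with immunoglobulin genes left out of the totals 922 and 1364.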

How the data were processed

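Cells sorted from the small intestinal lamina propria of WT and Zfp36-/- mice gave 1 library per genotype (4 mice pooled each, 10x Chromium 3′ kit, per the labels' protocols). The authors deposited UMI counts per gene and barcode, not normalized, made with Cell Ranger 3.1.0, per the file headers, on mm10, per the submitters' processing notes; the annotation release is not given in the sources used here. UMI collapsing removes PCR copies, and 3′ tags do not tell isoforms or coding changes apart. Gene coordinates are those of GENCODE M21, which held 30934 of the 31053 deposited features by identifier.

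Barcodes with at least 500 genes and at most 10% mitochondrial UMIs were kept (3397 of 3593 WT, 3339 of 3522 TTP-KO). The members of the Foxp3-positive class and all gene lists were chosen with earlier results of these data known. Counts were summed per group and divided by the group's UMIs (counts per 1000000, CPM); genes with at least 50 UMIs over both groups were measured. Ratios have exact conditional 95% intervals of Poisson counts, and shares exact Clopper-Pearson intervals; both cover counting error only. With 1 library per genotype and cells that are not replicates, no p-value was computed. For a group at 0 a bound uses a floor of 3 UMIs over the group. A floor of 3 among the 125 members is 2.40% of cells. The exact interval for 0 of 124 thinned members ends at 2.93%.

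The named genes are the 25 higher and 15 lower genes that were at least 2-fold apart, ranked by the interval end nearest to 0 and without the rule genes and antigen receptor genes, and those list members that were 1.5-fold apart or that define a list. For shares at equal depth, cells were thinned to 2000 UMIs, which left out 1 member, 15 comparison cells and 41 Cd3-negative cells. WT T cells were clustered with scanpy 1.11.5 (2000 variable genes, 30 components, 15 neighbours, Leiden resolution 1). Doublets were predicted per library and kept: 37 WT cells (1.09%), 2 of them members, and 5 TTP-KO cells (0.150%). Doublets beyond these may remain in both libraries. The alternatives changed the rule, the comparison cells, the scaling, the count minimum and the depth; 4 more, on immunoglobulin genes and on cluster cells, were chosen after seeing the data. Promoter sequences are from RefSeq (GRCm38.p6). A few genes and a planned subset comparison are not reported here. The calculations were tested on simulated data. Python 3.11.15, numpy 2.4.6, scipy 1.17.1 and pandas 2.3.3 were used.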

Additional observations from a re-analysis of the deposited data

How the results depend on the processing

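The number of Foxp3-positive WT cells was 125, and 90 when at least 2 Foxp3 UMIs were asked for, 90 with at most 5% mitochondrial UMIs and 83 when the rule was applied after thinning to 2000 UMIs. With a minimum of 200 UMIs per gene, 306 genes were higher and 581 lower; over the other settings these counts ran from 571 to 1203 and from 1009 to 2080. Of the log2 ratios followed, 8 changed sign in 1 setting each. These were Trdc (1.91) and Klre1 (0.23) in cells with a Cd4 UMI, Il17re (0.14) with at most 5% mitochondrial UMIs, Mcm5 (-0.0696) and Cdc20 (-0.23) as means of per-cell CPM, Birc5 (-0.45) and Cdk1 (-0.54) after thinning, and Igha (-0.25) without cells of 5% or more immunoglobulin UMIs. The cause was not tested. Thinning left 109 of the ratios it could give within their counting interval and moved 97. No paired analysis was possible because each genotype has 1 library and no result comes from a test. Genes with few UMIs in the 125 members have wide intervals, and a gene with 0 UMIs there may still be expressed below this depth.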
